A study of Mus musculus with 6 samples.

Results

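Chromatin regions that became listed as accessible after TGFβ1, far from any transcript start and packed 3 or more to a neighbourhood, were examined in NMuMG cells, a cultured epithelial line that derives from healthy mammary tissue of the mouse. Accessibility was assayed by ATAC-seq, in which the transposase Tn5 cuts open DNA and tags it for sequencing. The members were chosen by their presence in the deposited peak lists and by their spacing. A region had to lie in both TGFβ lists (2 h and 12 h) and in no region of the vehicle list, more than 1000 bp from every annotated transcript 5′ end, and it had to belong to a chain of at least 3 such regions with less than 25 kb between neighbours. These regions are called gained here, a word for their place in the lists and not for a signal that was compared. The rule found 1546 clustered regions in 454 clusters, out of 39435 regions in the union of the lists.

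All cells were first deprived of serum and insulin for 6 h. The vehicle group was then treated for 2 h, and TGFβ1 groups were kept with 5 ng/ml of the cytokine for 2 h and 12 h, with 2 biological replicates per condition and 6 samples in all. The vehicle was collected at 2 h only, so that TGFβ and a longer time without serum cannot be told apart at 12 h. The authors made 1 list per condition from both replicates, and the lists carry positions without a value per replicate or a read depth. No test between conditions was therefore run, and a region can be missing from the vehicle list because it did not reach the peak threshold. The vehicle list held 16765 regions against 32548 at 2 h and 33079 at 12 h.

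TGFβ binds a pair of receptor kinases that phosphorylate SMAD2 and SMAD3. These pair with SMAD4 and bind chromatin, often beside AP-1, a dimer of JUN and FOS family proteins that is known to act in opening enhancers. Enhancers of strongly regulated genes can lie in groups along the DNA, and CTCF, a zinc finger protein at chromatin loop anchors and domain borders, limits which genes such a group can reach.

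The sequences that follow are examples of motif matches in clustered regions. They were picked for their matches and do not show how common a motif is in clusters. The first 6 come from clusters named for their number of regions, their width or their AP-1 matches, and each centres on the AP-1 match nearest to the middle of the region with the most AP-1 matches. The last pair shows the CTCF matches found in the clusters by Snai1 and Acta2, since CTCF was the motif whose share differed between clustered and other gained regions. Each cluster is named after the nearest protein-coding gene, except the last, which is named after a gene of a fixed list. Capitals mark the match, and the letters are the plus strand of the reference genome NCBIM37 (mm9), 5′ to 3′, with coordinates of the printed stretch. None of these stretches overlaps an annotated untranslated region.
Ccdc25 cluster, chr14:66470177-66470283: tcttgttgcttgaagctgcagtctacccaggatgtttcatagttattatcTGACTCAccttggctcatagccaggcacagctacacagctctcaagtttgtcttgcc
Lpp cluster, chr16:24428278-24428384: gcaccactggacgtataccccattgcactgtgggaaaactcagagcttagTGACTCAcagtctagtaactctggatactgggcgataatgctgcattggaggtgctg
Wisp1 cluster, chr15:66725758-66725864: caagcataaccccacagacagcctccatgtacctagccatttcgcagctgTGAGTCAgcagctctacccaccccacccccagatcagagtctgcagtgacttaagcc
Egfr cluster, chr11:16635422-16635528: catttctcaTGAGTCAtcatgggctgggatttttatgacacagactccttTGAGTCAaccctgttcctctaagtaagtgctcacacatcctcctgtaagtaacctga
Agpat9 cluster, chr5:101679627-101679733: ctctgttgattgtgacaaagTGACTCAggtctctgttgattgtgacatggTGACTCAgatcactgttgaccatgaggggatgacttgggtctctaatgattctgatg
Foxa2 cluster, chr2:147569841-147569947: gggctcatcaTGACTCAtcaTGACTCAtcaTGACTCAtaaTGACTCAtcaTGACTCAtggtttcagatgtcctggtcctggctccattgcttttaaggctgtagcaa
Snai1 cluster, chr2:167357808-167357919: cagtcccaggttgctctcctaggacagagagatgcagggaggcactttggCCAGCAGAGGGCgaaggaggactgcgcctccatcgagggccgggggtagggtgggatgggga
Acta2 cluster, chr19:34226536-34226647: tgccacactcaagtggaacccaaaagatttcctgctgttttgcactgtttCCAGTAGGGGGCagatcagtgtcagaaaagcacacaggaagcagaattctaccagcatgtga

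The AP-1 match was TGAGTCA or its reverse complement, and both forms appear above. In the Foxa2 cluster 5 copies follow one another in the same direction inside the printed stretch, and the whole region holds 6. The region of the Agpat9 cluster holds 5 matches over its whole length, of which 2 are printed. The Egfr cluster shows 2 copies within the same stretch. In the other AP-1 stretches shown, from the Ccdc25, Lpp and Wisp1 clusters, there is a single copy.

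Most clusters were small. Of the 454 clusters, 331 held 3 regions, 86 held 4, 19 held 5, 13 held 6, 4 held 7 and 1 held 8. The span from the first to the last base of a cluster ranged from 4.30 kb to 76.1 kb with a median of 28.0 kb. Neighbours within a cluster were separated by 1004 to 24988 bp (median 10.7 kb, 1092 gaps), and 52 of these gaps were under 2 kb. The regions themselves covered 7.58% of the combined span of 13.6 Mb, so that most of this span lay between members.

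The chaining step used the spacing of the regions, so the values at its limit are a description. Gained distal regions made up 34.7% of the 27986 distal regions of the union, and the 1546 clustered ones were 15.9% of the 9706 gained distal regions. The other 8160 gained distal regions, alone or in pairs, are called scattered. Just inside the limit of 25 kb, clustered neighbours lay 24956 bp apart on chromosome 4 and 24988 bp apart on chromosome X. Just outside it, gaps of 25020 bp and 25177 bp separated a cluster from a region that was left out. The same chaining placed 14.0% (95% Wilson interval 13.2 to 14.9) of the 6373 distal regions found in all 3 lists into 257 chains, 3.97% (3.50 to 4.49) of the 5976 regions of the 12 h list alone and 4.38% (3.82 to 5.01) of the 4616 regions of the 2 h list alone. The share of gained regions in chains was thus near that of the regions common to all lists. The classes differ in size, and the part of size in these shares was not tested.

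The number of clusters changed with the intervals that were kept and with the chain gap. When each TGFβ list was shortened to its widest intervals, as many as the vehicle list holds, the same rule gave 68 regions in 22 clusters among 2424 gained distal regions. List length and interval width changed together there and cannot be told apart. With a chain gap under 10 kb it gave 416 regions in 130 clusters, and with one under 50 kb 3083 regions in 810 clusters.

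**Figure D1:**
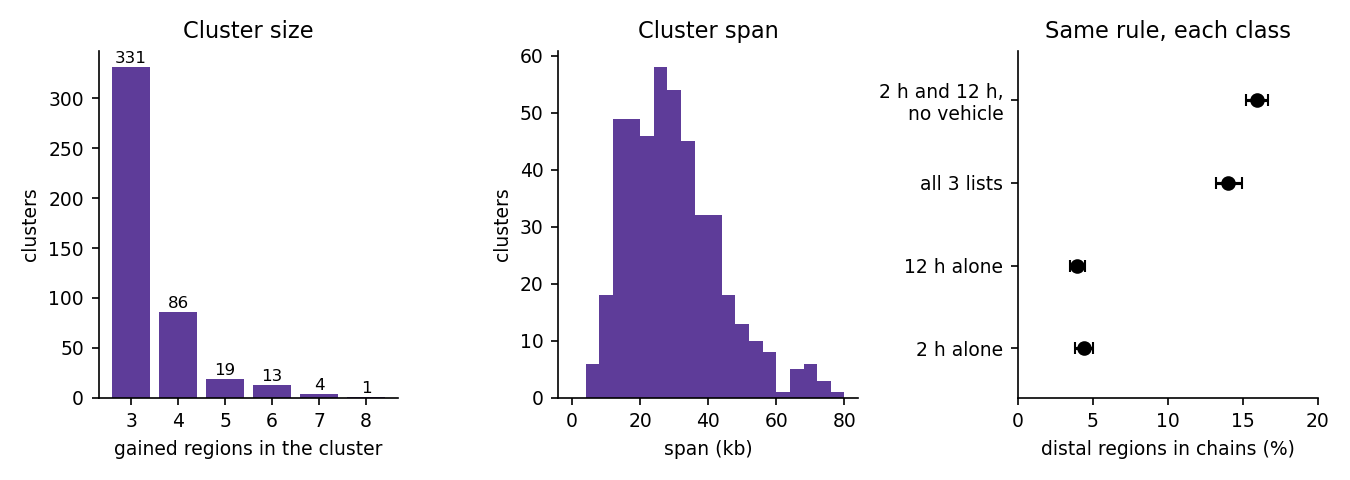
Left, number of clusters by the number of gained regions they hold; middle, number of clusters by span in kb; right, percent of the distal regions of each class of lists that the same rule places in chains of at least 3, with 95% Wilson intervals. Clusters of 3 regions are the most frequent (331 of 454), spans reach 76.1 kb, and the classes in 2 or more lists sit at 15.9% and 14.0%, above the classes of a single TGFβ list at 3.97% and 4.38%.

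Clusters occurred on all 20 chromosomes analysed. Chromosome 10 had the lowest share of clustered among gained distal regions, 48 of 529 (9.07%, 95% Wilson interval 6.91 to 11.8), and chromosome 5 the highest, 116 of 570 (20.4%, 17.2 to 23.8). These are the extremes of 20 values. Regions were counted in whole clusters, 14 on chromosome 10 and 36 on chromosome 5, so both intervals are too narrow by an unknown amount. The difference was not tested. Chromosome X held 9 clusters, the lowest density with 0.540 clusters per 10 Mb, and chromosome 19 the highest with 2.61. Of the gained distal regions, 31 of 235 (13.2%) were clustered on chromosome X and 55 of 322 (17.1%) on chromosome 19.

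Vehicle regions were also counted within the spans of the clusters. In 305 of the 454 clusters no vehicle region lay between the first and the last clustered region, and 149 clusters enclosed 209 vehicle regions in all, up to 4 in a single cluster. Of these, 193 were present in all 3 lists. The spans also enclosed 94 regions of the 12 h list alone and 82 of the 2 h list alone. In 211 clusters nothing but the gained regions themselves was listed. Spans of the same length elsewhere were not counted, so whether clusters hold more or fewer vehicle regions than other DNA was not tested.

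**Figure D2:**
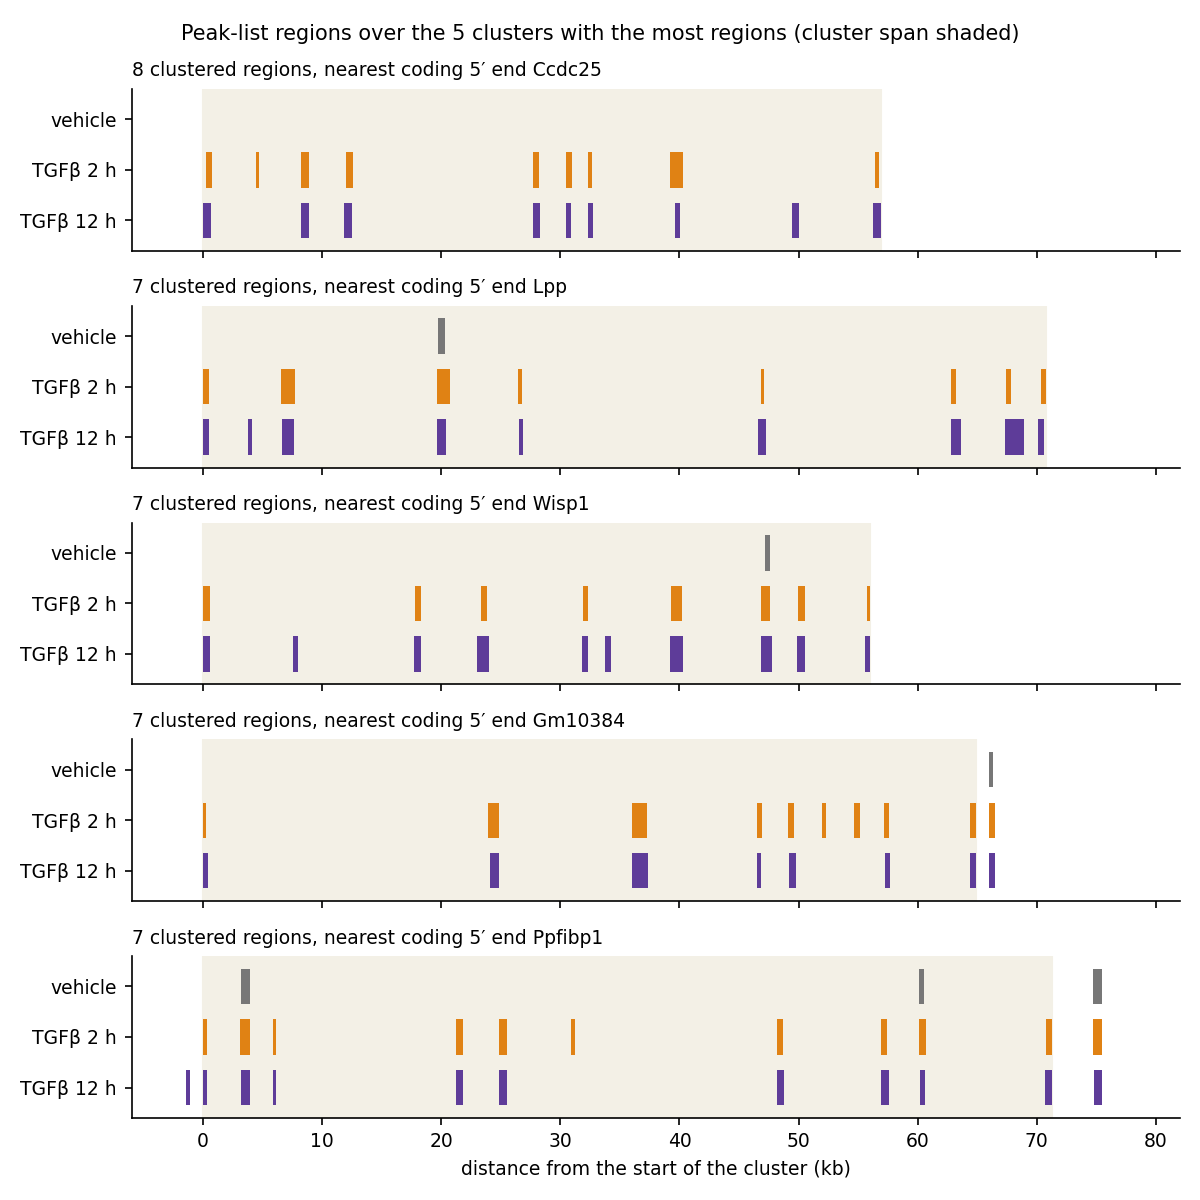
Regions of the vehicle, 2 h and 12 h lists (bars drawn to scale) over the 5 clusters with the most regions, against the distance in kb from the start of the cluster; the shaded area is the cluster. The clusters by Ccdc25 and Gm10384 enclose no vehicle region, those by Lpp and Wisp1 enclose 1 each and that by Ppfibp1 encloses 2. Bars at a single time are regions of the 2 h or the 12 h list alone and are not members.

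The cluster with the most regions lay on chromosome 14 from 66469776 to 66526656, starting within introns of Ccdc25 (ENSMUSG00000022035.5) 13637 bp from its 5′ end and running beyond the gene. Its 8 regions measured, in order along the chromosome, 463, 685, 591, 550, 447, 303, 1057 and 332 bp at 2 h. At 12 h they measured 635, 656, 605, 519, 415, 388, 410 and 610 bp. Changes in both directions are thus found side by side, 4 regions being wider and 4 narrower at 12 h. AP-1 matches occurred in 3 of the 8, and the vehicle list named no region in the 56881 bp of the cluster.

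The cluster in Lpp (ENSMUSG00000033306.8), which encodes a LIM domain protein of focal adhesions, lay wholly within introns of that gene on chromosome 16 from 24428130 to 24498912. Its 7 regions were 465, 1187, 368, 309, 456, 436 and 446 bp wide at 2 h and 538, 1018, 312, 654, 881, 1566 and 438 bp at 12 h. The sum of the widths was 3667 bp at 2 h and 5407 bp at 12 h, the largest 12 h sum of all clusters. Most of the gain came from the sixth region, and 3 regions were narrower at 12 h. AP-1 matches were present in 4 regions, among them the one printed above.

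The cluster by Wisp1 (ENSMUSG00000005124.3), a secreted matricellular protein of the CCN family, spanned chromosome 15 from 66675574 to 66731559. It included the 5′ end of Wisp1 within its span and began in an intron of Tg, the gene of thyroglobulin. Widths of its 7 regions were 595, 476, 481, 448, 922, 635 and 209 bp at 2 h, against 563, 586, 1009, 480, 1057, 689 and 427 bp at 12 h. All but the first were wider at 12 h. It carried AP-1 matches in 5 regions, 6 matches in all.

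The remaining clusters of 7 regions lay on chromosome 15 from 36748524 to 36813428, around the 5′ end of Gm10384, and on chromosome 6 from 146833434 to 146904699, mostly in introns and around the 5′ end of Ppfibp1, which encodes a liprin. In the first, the 2 h widths of 237 to 1242 bp stood against 391 to 1337 bp at 12 h, and 3 regions were wider at 12 h. In the Ppfibp1 cluster the ranges were 230 to 641 bp and 213 to 702 bp, with 5 wider. AP-1 matches were found in 4 of 7 regions by Gm10384 and in 1 of 7 by Ppfibp1, so clusters of the same size differed widely in this motif.

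Clusters with the broadest sites were found in other places. In introns of Mbnl2, a regulator of RNA splicing, 3 regions on chromosome 14 from 120707054 to 120742131 measured 750, 1695 and 1052 bp at 2 h and 727, 3306 and 1059 bp at 12 h. The middle one was the widest clustered region at 12 h. It had no AP-1 match in the 500 bp around its centre, and the rest of it was not searched for this count. Upstream of Egfr, the gene of the epidermal growth factor receptor, 6 regions on chromosome 11 from 16583436 to 16638099 measured 731, 348, 331, 725, 685 and 961 bp at 2 h. At 12 h they measured 749, 573, 385, 2068, 832 and 274 bp. The last of them, nearest to Egfr, was the only one to be narrower at 12 h. No other region of any list lay in the Egfr cluster, which ended 14107 bp before the 5′ end of the gene.

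The clusters with the most AP-1 matches in the 500 bp windows around the centres of their regions were a pair with 7 each, both far from protein-coding 5′ ends. That by Wisp1 was 1 of 9 clusters with 6 matches, of which 8 lay within 100 kb of such an end. On chromosome 5, from 101645786 to 101680192, 3 regions carried 7 matches in these windows and the nearest coding 5′ end, of Agpat9, an enzyme of lipid synthesis, was 371054 bp away. Their widths were 576, 569 and 694 bp at 2 h and 751, 650 and 867 bp at 12 h. On chromosome 2, from 147532764 to 147570233, 3 regions also carried 7 matches in the windows, 302472 bp from the 5′ end of Foxa2, a forkhead transcription factor. Their widths were 420, 181 and 530 bp at 2 h and 507, 519 and 515 bp at 12 h. Of the 7 matches 6 belonged to 1 region, the one with the repeated sequence shown above, so a count of matches there is not a count of separate sites. The printed Agpat9 stretch repeats as well, a nearly identical run of letters standing before each match, and its region holds 4 of the 7 window matches of that cluster.

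Widths come from the same lists that chose the regions and are given as a description. The median width of the 1546 clustered regions was 464.5 bp at 2 h (quartiles 342 and 641) and 522 bp at 12 h (382 and 704). At 12 h 961 regions were wider (62.2%, 95% Wilson interval 59.7 to 64.5), 574 were narrower and 11 had equal width. The share wider ran from 53.2% on chromosome 8 to 70.0% on chromosome 12. It was 60.9% (59.9 to 62.0) among scattered regions and 49.3% (48.0 to 50.5) among distal regions of all 3 lists. Clustered regions thus resembled scattered ones in this respect. Widening was mixed within clusters, since in 91 clusters every region was wider at 12 h, in 15 none was, and in 348 both kinds occurred. Regions with an AP-1 match were wider at 12 h in 64.0% (60.6 to 67.3) and those without in 60.3% (56.8 to 63.7), with intervals that overlap.

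**Figure D3:**
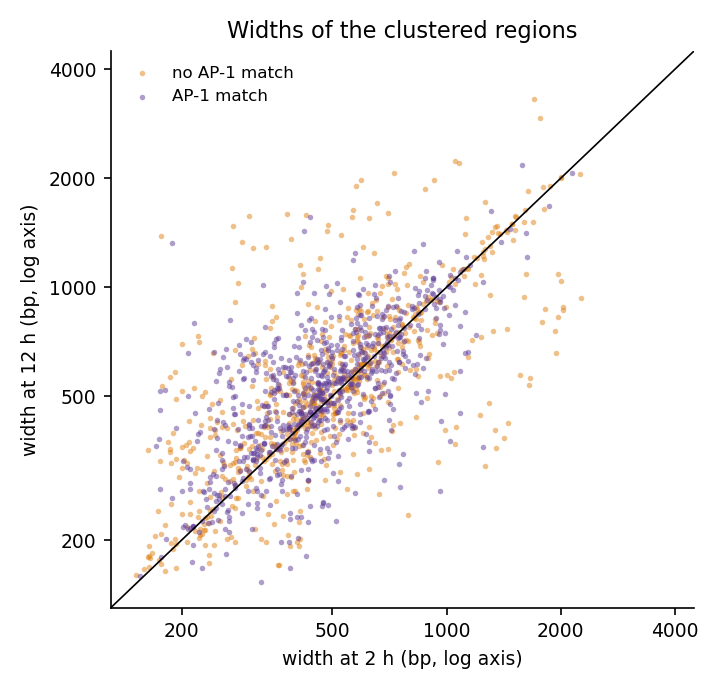
Width at 12 h against width at 2 h (bp, log axes) for each of the 1546 clustered regions, coloured by the presence of an AP-1 match in the 500 bp window; the line marks equal width. More points lie above the line (961) than below it (574), and both colours are mixed throughout.

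DNA sequence was not used by the rule and was compared between clustered and scattered regions, in windows of 500 bp around the centre of each region. The motifs were exact matches on both strands. Besides AP-1 they were the SMAD palindrome GTCTAGAC, the TEAD motif ACATTCCA, the ETS motif CCGGAAGT, the RUNX motif TGTGGTTT, the GRHL motif AACCGGTT and the CTCF core consensus. No spelled motif contains another. Fisher's exact test (two-sided) with Benjamini-Hochberg adjustment over 8 comparisons, gene location included, was used. It compares regions of the lists and not conditions, and neighbours in a cluster are not independent of each other, so the p-values are too small by an unknown amount.

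CTCF was the motif whose share differed between clustered and scattered regions. It occurred in 34 of 1546 clustered regions (2.20%, 95% Wilson interval 1.58 to 3.06) and in 349 of 8160 scattered ones (4.28%, 3.86 to 4.74). The odds ratio was 0.503 (95% interval 0.352 to 0.719, exact p = 5.99e-05, adjusted p = 0.000479). The share was lower in the clustered regions on 15 of 20 chromosomes. Among all distal regions of the union it was 5.03%, and in windows 5 kb to either side of the clustered regions it was 0.249% (7 of 2807). Only windows that overlapped no region of the union were kept, so other listed sites are absent from this value. Clustered regions therefore held fewer CTCF matches than scattered ones, though more than these windows without a listed region. The share was 4.58% (4.08 to 5.15) for lone gained regions, 3.50% (2.83 to 4.33) for pairs, 1.81% (1.15 to 2.85) in clusters of 3 and 2.89% (1.79 to 4.65) in clusters of 4 or more.

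Median GC content was 47.0% in clustered and 46.0% in scattered windows. Stratified by union width and by GC content, 5 bins each, the Mantel-Haenszel odds ratio for CTCF was 0.515 (0.358 to 0.741). The adjusted p of the exact test did not pass 0.05 when clusters needed 4 regions (odds ratio 0.713, 0.429 to 1.19, adjusted p = 0.775) or intervals a width of 250 bp (0.571, 0.346 to 0.944, adjusted p = 0.113), and over 14 alternatives the adjusted p ran from 7.14e-06 to 0.775.

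The same split was then made among the distal regions of all 3 lists, a comparison chosen after the values above were seen. There CTCF occurred in 29 of 895 chained regions (3.24%, 2.27 to 4.61) and in 204 of 5478 others (3.72%, 3.25 to 4.26), with an odds ratio of 0.866 (0.583 to 1.29, exact p = 0.564). The ratio of both odds ratios was 0.581 (95% Woolf interval 0.341 to 0.990, not adjusted for the other comparisons). The upper end of this interval lies close to 1.

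CTCF matches were found at the borders of clusters and inside them. The 34 matched regions lay in 32 clusters, and 2 clusters held a pair of them. At the first or last position of a cluster 18 of 908 regions matched (1.98%, 1.26 to 3.11), and at inner positions 16 of 638 (2.51%, 1.55 to 4.03). Both intervals overlap. Of the 34 regions 6 also had an AP-1 match.

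AP-1 was by far the most frequent motif, and the difference in the share with a match did not pass the test. A match was present in 781 clustered regions (50.5%, 48.0 to 53.0) and in 4225 scattered ones (51.8%, 50.7 to 52.9), an odds ratio of 0.951 (0.853 to 1.06, exact p = 0.375, adjusted p = 0.604). The share was 46.0% over all distal regions of the union. It was 7.98% (7.03 to 9.04) in the windows 5 kb beside the clustered regions, which overlap no region of the union. The motif was about as frequent in small as in large clusters. The share was 50.3% (47.1 to 53.4) in clusters of 3 and 51.0% (46.8 to 55.1) in larger ones. Of the 959 matches in clustered regions 32.8% lay within 50 bp of the centre of their region, against 34.9% of the 5362 matches in scattered regions. Of clustered regions 156 (10.1%, 8.69 to 11.7) and of scattered ones 1007 (12.3%, 11.6 to 13.1) held 2 or more matches, an odds ratio of 0.797 (0.667 to 0.953, exact p = 0.0117). This last comparison was chosen after its values were seen, and its p is not adjusted.

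Matches were also counted per cluster. With a share of 50.5% per region and at least 3 regions, a match somewhere in most clusters follows from the cluster size. In 408 of the 454 clusters (89.9%, 86.7 to 92.3) at least 1 region had a match, in 41 every region had one and in 46 none had. The share of neighbouring pairs that both carried it was close to the square of the overall share. Both members of a neighbouring pair had a match in 277 of 1092 pairs (25.4%), where the square of the share is 25.5%, and 1 of the pair had it in 551.

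**Figure D4:**
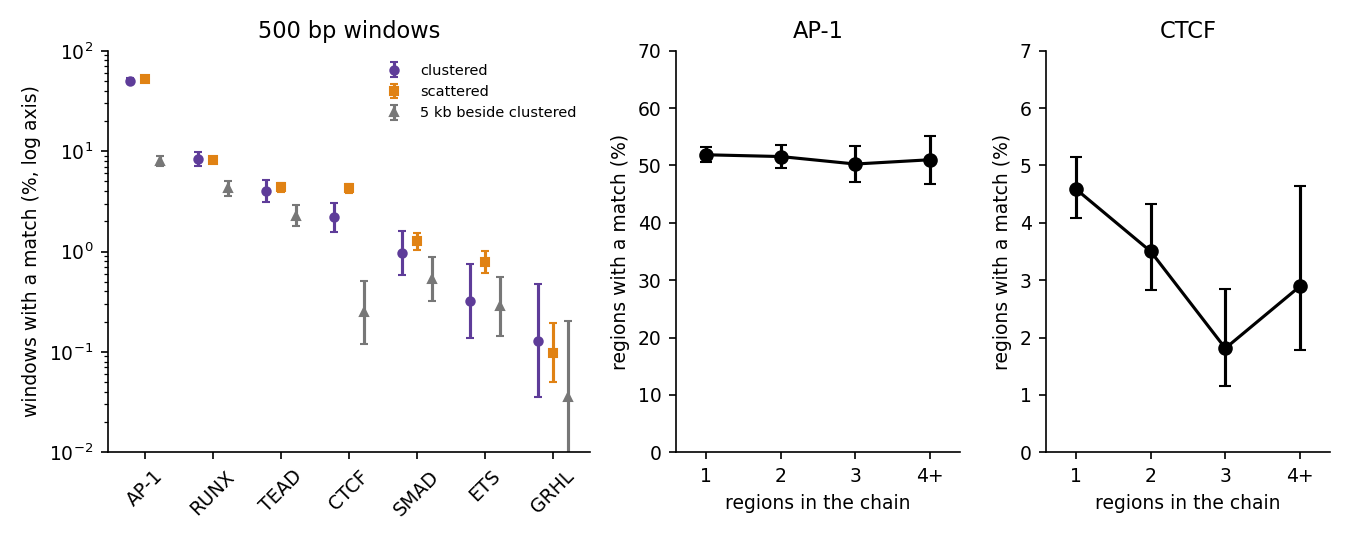
Left, percent of 500 bp windows with a match to each motif (log axis) for clustered regions, scattered regions and windows 5 kb beside the clustered regions; middle and right, percent of gained distal regions with an AP-1 or a CTCF match by the number of regions in their chain. Bars are 95% Wilson intervals. The windows beside the clustered regions overlap no region of the union. AP-1 stays near 50% at every chain size, while CTCF is 4.58% in lone regions, 1.81% in chains of 3 and 2.89% in longer chains, with intervals of the last pair that overlap.

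The other motifs were rarer and their differences did not pass the test. SMAD palindromes were found in 15 clustered regions (0.970%) and in 103 scattered ones (1.26%), with an odds ratio of 0.766 (0.445 to 1.32, exact test, adjusted p = 0.604), and over all distal regions in 1.00%. The 15 regions lay in 15 different clusters, and 8 of them had an AP-1 match as well. TEAD matches were in 4.01% of clustered, 4.38% of scattered and 4.26% of all distal regions (exact test, adjusted p = 0.761). RUNX matches were in 8.41%, 8.16% and 7.95% (exact test, adjusted p = 0.762). The ETS motif occurred in 5 clustered regions (0.323%) and 64 scattered ones (0.784%), against 0.815% of all distal regions. Its odds ratio was 0.410 (0.165 to 1.02, exact p = 0.0472, adjusted p = 0.126). GRHL was found in 2 and 8 regions, 0.168% of all distal ones, too few for a comparison at this number of matches (odds ratio 1.32, 0.280 to 6.22, exact test, adjusted p = 0.761).

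Clusters were found within genes and far from them. By their span 137 clusters lay inside a single protein-coding gene, 193 touched none, and 124 overlapped genes in other ways. The median distance from a cluster to the nearest protein-coding 5′ end was 24.6 kb, the largest was 895 kb, and 84 clusters enclosed such an end. The centre of 899 clustered regions (58.2%) was outside protein-coding genes and that of 631 (40.8%) in an intron. Few were exonic, with 11 in untranslated and 4 in coding exons.

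The share inside protein-coding genes was 41.8% (39.4 to 44.3) for clustered and 45.6% (44.5 to 46.7) for scattered regions, an odds ratio of 0.859 (0.770 to 0.959, exact p = 0.00743, adjusted p = 0.0297). It was lower in clustered regions on 11 of 20 chromosomes. This difference was not stable. With a chain gap under 10 kb the odds ratio was 1.06 (0.872 to 1.29), and only 5 of 13 alternatives kept an adjusted p below 0.05, the values running from 0.000328 to 0.993.

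Promoters near clusters were looked up in the lists. Union regions that came within 1000 bp of the nearest protein-coding 5′ end were taken. A vehicle region merged into such a region could itself lie further away. A union region taken in this way held a vehicle region for 256 of the 454 clusters (56.4%, 51.8 to 60.9). The same held for 3979 of the 8160 scattered regions (48.8%, 47.7 to 49.8) and for 8898 of all 22350 protein-coding 5′ ends (39.8%). A cluster spans more DNA than a single region, and the part of this in the difference was not tested. For 152 clusters no list had a region there, and for 32 the only region was in both TGFβ lists and not in vehicle.

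Genes known from the TGFβ response and from the epithelial-to-mesenchymal transition were then looked up by fixed lists. A gene was counted if a clustered region lay within 100 kb of its 5′ end, which was so for 1119 of all 22350 protein-coding genes (5.01%). Of the 116 list genes 18 were counted (15.5%). The lists hold genes that were picked for their link to TGFβ or to epithelia with earlier results known, and 91 of the 116 had any gained distal region within 100 kb, against 12000 of all 22350, so the count is not independent evidence of a preference. The median number of clustered regions was 0 in every list and over all genes. With a chain gap under 10 kb 7 list genes were counted, and with one under 50 kb 46. Within 50 kb of the 5′ end, at the main chain gap, 12 list genes were counted, and within 200 kb 27.

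In the signalling lists the share of genes counted was 6.25% for ligands, receptors and SMADs and 22.2% for feedback genes. Smad3, a receptor-activated SMAD, was the single counted gene of 16 ligands, receptors and SMADs. It had 5 clustered regions, 4 in its introns 11277 to 56181 bp downstream of its 5′ end and 1 at 3442 bp upstream. In order along the chromosome they measured 816, 510, 362, 835 and 270 bp at 2 h and 826, 542, 304, 613 and 204 bp at 12 h. In the 500 bp windows AP-1 matches were in 3 of them and a SMAD palindrome in none. Of 9 feedback genes Smurf1 and Tgif1 were counted. Smurf1, a ubiquitin ligase of receptors and SMADs, had 3 intronic regions and 1 upstream, which measured 445, 443, 357 and 643 bp at 2 h and 504, 496, 303 and 674 bp at 12 h. Tgif1, a corepressor of SMADs, had 1, at 90136 bp upstream.

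Among AP-1 and related factors 2 of 12 genes were counted. The 3 regions by Jun lay 16278 to 50346 bp downstream of its 5′ end, beyond the gene, and all were wider at 12 h (631, 435 and 585 bp) than at 2 h (318, 237 and 524 bp). Fosl2, a FOS family gene, had 3 regions 55617 to 61123 bp downstream, with widths of 463, 658 and 225 bp at 2 h and 494, 545 and 416 bp at 12 h. Both clusters held AP-1 matches in 2 of their 3 regions.

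Of 15 transcription factors of the epithelial-to-mesenchymal transition Snai1 and Ets1 were counted. Snai1, a repressor of E-cadherin, had 4 regions between 5759 bp upstream and 31708 bp downstream of its 5′ end. They measured 152, 1205, 385 and 670 bp at 2 h and 160, 1204, 198 and 637 bp at 12 h. The upstream one, close to the smallest width that was kept, holds the CTCF match printed above. Ets1, a founding ETS factor, had 3 regions in an intron 72140 to 85935 bp from its 5′ end, the first of which was 1764 bp at 2 h and 2930 bp at 12 h.

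Genes of the matrix, integrins and actin followed. In the matrix list 3 of 16 genes were counted, among them Tnc and Fn1. Fn1 was counted through 1 region, 99111 bp from its 5′ end and so close to the limit of 100 kb. Tnc, the matrix protein tenascin C, had 3 regions 57351 to 71440 bp upstream. They measured 414, 540 and 331 bp at 2 h and 452, 523 and 627 bp at 12 h, and none had an AP-1 match in its 500 bp window. In the integrin list 3 of 10 were counted. Itgb3 had 4 intronic regions within 30823 bp of its 5′ end, one of them 2142 bp wide at 2 h and 2066 bp at 12 h, Itga2 had 3 within 13346 bp, and Itgav had 3, the nearest at 4016 bp.

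In the actin list 5 of 13 genes (38.5%) were counted, Acta2, Tpm1, Actn1, Vcl and Palld. Palld was counted through 1 region, 98411 bp from its 5′ end. The order of the lists depended on the chain gap, since under 50 kb 5 of 13 actin genes and 5 of 9 feedback genes were counted, and under 10 kb 1 and 1. Tpm1, a tropomyosin of stress fibres, had 5 regions 3806 to 47896 bp downstream of its 5′ end, measuring 281, 327, 417, 424 and 182 bp at 2 h and 261, 1015, 466, 329 and 202 bp at 12 h. Acta2, smooth muscle actin, had 4 regions 40451 to 83860 bp downstream, which belong to the longest cluster, of 6 regions and 76062 bp. They measured 404, 1418, 564 and 281 bp at 2 h and 269, 382, 409 and 1028 bp at 12 h, so that the widest site differed between the times. The genes in that cluster are Ankrd22 and Stambpl1, and both lie nearer to it than Acta2 does. Actn1 and Vcl, which link actin to adhesions, had 4 clustered regions each.

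No gene of 2 lists was counted. None of 16 epithelial genes (adhesion molecules, keratins and their regulators) and none of 9 Hippo targets and TEAD cofactors had a clustered region within 100 kb, though 11 and 9 of them had a gained distal region. The share over all protein-coding genes was 5.01%, so a count of 0 in lists this short does not set their genes apart. Cdh1, the gene of E-cadherin, and Cyr61, a Hippo target, had 5 gained distal regions each, too far apart for a chain of 3. With a chain gap under 50 kb 4 genes were counted in each of these lists.

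**Figure D5:**
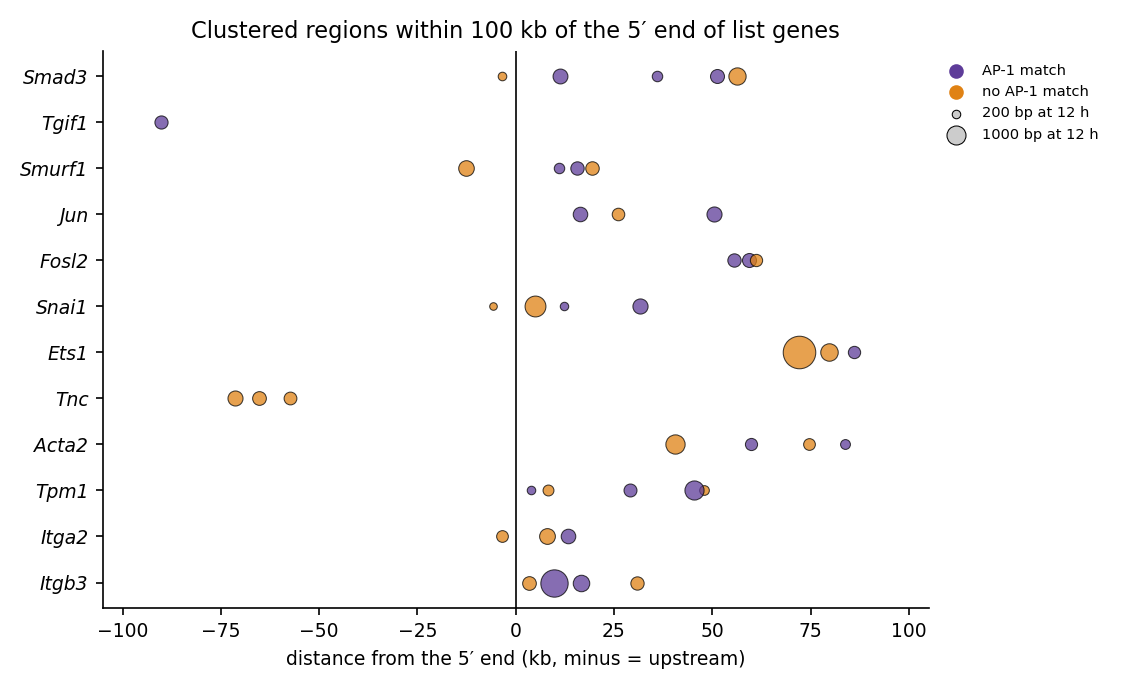
Clustered regions around 12 named list genes, up to 100 kb to either side of the 5′ end, by distance in kb along the direction of transcription (minus is upstream); the area of a point follows its width at 12 h and the colour shows an AP-1 match. The nearest regions of Smad3, Snai1, Tpm1, Itga2 and Itgb3 lie 3359 to 4846 bp from the 5′ end, while the nearest ones of Fosl2, Ets1 and Tnc lie 55617 to 72140 bp away.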

How the data were processed

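ATAC-seq of NMuMG cells was done in duplicate for vehicle and for TGFβ1 at 2 h and 12 h. The authors mapped reads to mm9, called peaks with MACS2 (2.1.2 in the submitters' processing notes) and, per condition, deposited 1 peak list of peaks reproducible between both replicates. Only chromosome, start and end were used. Deposited coordinates are 0-based starts and are printed here 1-based.

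Identical lines were counted once, intervals under 150 bp dropped and gaps under 1000 bp merged, within lists and over them. Overlap meant 1 bp. 5′ ends came from all transcripts of GENCODE vM1. Fisher's test, Wilson and Woolf intervals were computed with scipy 1.17.1 and Mantel-Haenszel ratios with statsmodels 0.14.6 after tests on simulated data. Members and gene lists were chosen with earlier results of these data known. Named were the 5 clusters with most regions, the 3 with the largest summed 12 h width, the 3 with most AP-1 matches, and 2 genes per list with most clustered regions; 1 of these genes is not reported here. Fn1, Itgav, Actn1, Vcl, Palld, Cdh1 and Cyr61 were added after their values were seen. The read totals of the libraries, which the study gives, were not used here, and the lists hold no depth per peak. Intervals cover counting error only.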

Additional observations from a re-analysis of the deposited data

Results flagged for a closer look

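The vehicle list held 657 intervals narrower than 150 bp, which the rule did not use. Of the 1546 clustered regions 7 overlapped such an interval and 8 lay within 1000 bp of one. The 7 that overlapped such an interval are thus listed in vehicle in a narrower form. When every deposited vehicle interval, narrow ones included, removed a gained region within 1000 bp, the rule gave 1528 clustered regions in 449 clusters.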

How the results depend on the processing

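No paired analysis was possible because the lists hold no value per replicate, and no replicate could be left out for the same reason. The counts depended on the chaining. Gaps under 10 kb gave 416 regions in 130 clusters, gaps under 50 kb 3083 in 810, chains of 2 or more 3860 in 1611, chains of 4 or more 553 in 123, and TGFβ lists shortened to the length of the vehicle list 68 in 22. The other 8 settings kept both counts within 1.5 times. List genes counted were 7 with gaps under 10 kb and 46 with gaps under 50 kb. Within 50 kb of the 5′ end they were 12, and within 200 kb 27.

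The CTCF odds ratio stayed below 1 in 14 alternatives and lost its adjusted p below 0.05 with chains of 4 or more (0.713) and intervals of at least 250 bp (0.571). Shortened lists gave no CTCF or ETS ratio, and 3 settings no GRHL ratio, since a count of 0 occurred there. The odds ratio for gene location turned to 1.06 with gaps under 10 kb and lost the call with gaps under 50 kb (0.989), coding transcripts only (0.914), merge distances of 500 bp (0.881) and 2000 bp (0.885), intervals of at least 250 bp (0.856), no minimum width (0.876) and shortened lists (0.752). Ratios that passed no test crossed 1 for TEAD (1.13 with gaps under 10 kb, 1.20 with chains of 4 or more), ETS (1.02 with gaps under 10 kb), RUNX (0.963 with gaps under 10 kb, 0.997 with a merge distance of 500 bp, 0.690 with shortened lists) and GRHL (0.921 with gaps under 50 kb, 0.996 with coding transcripts, 0.880 in whole regions). Causes were not tested. The share wider at 12 h moved by less than its interval under 3 alternatives. The lists hold no depth per peak and the study's read totals were not used here. Peak thresholds decide membership, and neighbouring regions are not independent.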
